A study of Mus musculus with 6 samples.

Results

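The 10 genes described here encode the D-type cyclins (Ccnd1, Ccnd2, Ccnd3), the kinases they activate (Cdk4, Cdk6) and inhibitors of cyclin-dependent kinases (Cdkn1a, Cdkn1b, Cdkn1c, Cdkn2a, Cdkn2b). They were listed by name out of 22180 genes that had a probe set with exactly 1 symbol in the platform annotation. The list was chosen by function with the signal on these arrays and the difference of T173I from wild type in view. All 10 had 1 such probe set each. Their signal was measured on 6 Affymetrix whole-transcript arrays of IMCD cells, a mouse kidney line from the inner medullary collecting duct, that stably carried a lentiviral bicistronic vector for GFP and ILK, integrin-linked kinase, a scaffold protein of integrin adhesions. In 3 arrays the vector encoded wild-type ILK and in 3 the missense variant T173I. Cells of both groups had been given EGF (20 ng/ml, 15 minutes) and were left for 1 hour before RNA was taken. No group without EGF or without an ILK vector was analysed here. The number of independent lines per group was not known; with 1 line per group, the line and the variant cannot be told apart. The title of 1 T173I sample lacks the first letter of the variant's name, and its transduction label gives it in full.

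D-type cyclins are made when growth factors such as EGF activate the RAS and ERK cascade, and cell adhesion through integrins is known to be needed for this as well. They bind CDK4 or CDK6, and the complexes phosphorylate the retinoblastoma protein, which releases E2F factors and lets the cell pass from G1 into S phase. Proteins of the INK4 family (from Cdkn2a and Cdkn2b) bind CDK4 and CDK6 and keep the cyclin out. Proteins of the Cip/Kip family (p21 from Cdkn1a, p27 from Cdkn1b, p57 from Cdkn1c) bind complexes of cyclin and kinase, block CDK2, and can also help D-type cyclins to assemble with their kinase.

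Median log2 signals were 5.45 to 5.52 per array, and the T173I arrays differed more among themselves than the wild-type arrays (median SD of a gene 0.16 against 0.098 log2 units). T173I replicate 1 lay nearest to the wild-type arrays, with a median absolute distance from the wild-type mean of 0.10 over the 13308 genes tested, against 0.19 for replicate 2 and 0.14 for replicate 3. Ilk itself has no probe set of its own in the annotation, so the transgene was not checked here. Epithelial markers were clear: all 6 measured ones, among them Epcam and Cdh1, lay above the signal limit, a log2 signal of 5.37 that the lowest 40% of genes did not exceed. Of 11 markers of the principal cell, the cell that takes up sodium and water in the collecting duct, 6 lay above the limit, Aqp2 by little (mean 6.09), and Aqp3, Aqp4, Scnn1b, Elf5 and Tfap2b lay below it. Above the limit were also 3 of 6 markers of intercalated cells, 3 of 6 of proximal tubule, 2 of 7 of fibroblasts (Col1a1 and Col1a2), 0 of 5 of endothelium and 2 of 5 of leukocytes (Cd68 and Csf1r), while the leukocyte gene Ptprc was at 3.69.

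The D-type cyclins held the largest differences of the 10 genes, and both large ones came from the same pair of T173I arrays. Ccnd1, for cyclin D1, the D-type cyclin that growth factors are best known to induce, had log2 signals of 6.27, 7.68 and 7.04 on wild-type replicates 1, 2 and 3 and of 7.71, 10.76 and 10.10 on T173I replicates 1, 2 and 3. T173I replicates 2 and 3 were high, and replicate 1 stood only just above the top wild-type array, so the groups did not overlap but nearly touched. The wild-type mean was 6.999 ± 0.71 (SD, n = 3), and the T173I mean was 9.53 ± 1.60 (SD, n = 3). The difference was 2.53 log2 units, with a 95% interval of 0.64 to 4.42 from the limma fit, and it ranked 3 among the 6303 tested genes with a positive difference.

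Ccnd2, for cyclin D2, had log2 signals of 4.62, 4.72 and 4.46 on the wild-type arrays and of 4.57, 9.72 and 8.28 on T173I replicates 1, 2 and 3. It was below the signal limit on all 3 wild-type arrays and on T173I replicate 1, and far above it on T173I replicates 2 and 3, so the groups overlapped. On these 2 arrays it lay 4.35 and 2.91 log2 units above the limit, a fold of at least 20.3 and 7.51 against arrays where its signal was dim. Ccnd2 was among the genes tested only through these 2 arrays. The difference of group means was 2.92 (95% interval 0.059 to 5.78), rank 2 of the positive differences, and it describes a group whose arrays did not share 1 level (SD 2.66 in T173I and 0.13 in wild type). Ccnd3, for cyclin D3, had 7.71, 8.09 and 7.83 on the wild-type arrays and 8.29, 8.35 and 7.89 on the T173I arrays. Here it was T173I replicates 1 and 2 that lay above the wild-type range and replicate 3 that lay within it, another order than in Ccnd1 and Ccnd2. The difference was 0.30 (95% interval -0.077 to 0.68). It was 0.079 with array weights and 0.45 (0.11 to 0.79) without T173I replicate 3.

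**Figure D1:**
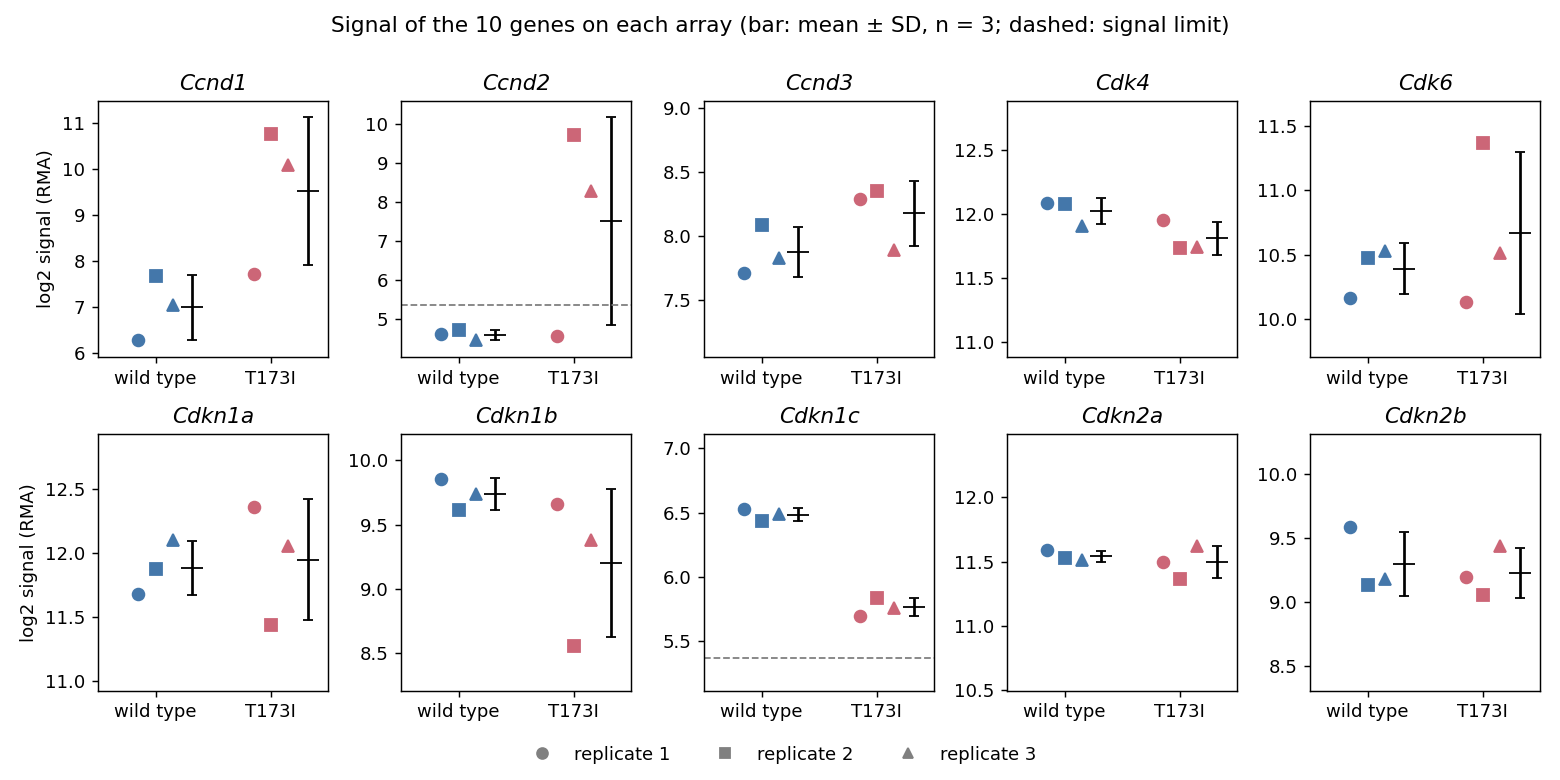
Log2 signal (RMA) of each of the 10 genes on the 3 wild-type ILK arrays (blue) and the 3 T173I arrays (red), with symbols for replicates, the mean ± SD beside each group and the signal limit of 5.37 dashed; each panel has its own vertical range. Ccnd1 and Ccnd2 are high on T173I replicates 2 and 3 alone, and Cdkn1c is low on all 3 T173I arrays.

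Some markers of the principal cell had low signals on the arrays with high cyclins. The mean log2 level of the 11 genes, 5 of them below the signal limit, was 5.81 to 5.89 on the wild-type arrays and 5.82 on T173I replicate 1, against 5.47 and 5.50 on T173I replicates 2 and 3, which had the high Ccnd1 and Ccnd2. Scnn1g, a subunit of the epithelial sodium channel, was at 7.64 on T173I replicate 1 and at 5.90 and 5.71 on replicates 2 and 3, against 7.28 to 7.87 in wild type. Avpr2, the vasopressin receptor, was at 7.20, 6.07 and 6.23 on T173I replicates 1, 2 and 3, against 6.68 to 6.88. Gata3 was low on all 3 T173I arrays, replicate 1 included (6.33, against 6.91 to 7.34 in wild type), Scnn1a was nearly level, and the T173I means of Aqp2 (6.11 against 6.07) and Aqp3 (5.33 against 5.26) were not lower. The mean of the 6 epithelial markers was 10.45 to 10.57 on the wild-type arrays and 10.76, 11.12 and 11.19 on T173I replicates 1, 2 and 3. Of these markers, Krt8, Krt18, Krt19 and Cldn4 had higher T173I means, Krt19 the most (10.15 against 8.53). Cdh1 was level (mean 11.30 in each group), and Epcam was not higher (T173I mean 10.88 against 11.05). The fibroblast list was at 5.03 to 5.21 in wild type and 5.04 to 5.14 in T173I. Intercalated cell (5.03 to 5.22 against 5.06 to 5.12), proximal tubule (5.38 to 5.41 against 5.26 to 5.47), endothelial (4.70 to 4.87 against 4.85 to 4.95) and leukocyte (5.45 to 5.74 against 5.54 to 5.80) mean levels overlapped between the groups. The leukocyte mean hides opposite differences of the markers above the limit. Cd68 was at 7.47, 8.08 and 8.26 in wild type and at 8.40, 9.08 and 9.63 in T173I. Csf1r was at 6.60, 7.05 and 6.68 in wild type and at 6.52, 5.52 and 5.93 in T173I. The part of these markers in the differences was not tested. In RNA from whole cultures, a change in the number of cells of a kind and a change in RNA per cell cannot be told apart.

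The partner kinases were bright on every array. Cdk4 differed little, while Cdk6 lay 0.98 log2 units above the wild-type mean on T173I replicate 2. Cdk4 had log2 signals of 12.09, 12.08 and 11.91 on the wild-type arrays and of 11.96, 11.73 and 11.74 on the T173I arrays. T173I replicates 2 and 3 lay below all wild-type arrays and replicate 1 among them. The difference was -0.21 (95% interval -0.45 to 0.026). Cdk6 had 10.16, 10.47 and 10.53 on the wild-type arrays and 10.13, 11.37 and 10.51 on the T173I arrays, so that T173I replicate 2 alone was high, while replicate 1 lay just below the wild-type range and replicate 3 inside it. Its difference was 0.28 (95% interval -0.45 to 1.01). Ccnd1 was thus high on T173I replicates 2 and 3 where Cdk4 was at its lowest, and Cdk6 was raised beside the cyclins on 1 of these arrays.

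Cdk4 is a textbook target of the transcription factor MYC, which binds the E-box CACGTG. The 250 bases before the RefSeq start of Cdk4 (GRCm38.p6, chr10:127063285-127063534, + strand) are shown because they hold this word more often than nearly all other promoters, with each match in capitals:
Cdk4: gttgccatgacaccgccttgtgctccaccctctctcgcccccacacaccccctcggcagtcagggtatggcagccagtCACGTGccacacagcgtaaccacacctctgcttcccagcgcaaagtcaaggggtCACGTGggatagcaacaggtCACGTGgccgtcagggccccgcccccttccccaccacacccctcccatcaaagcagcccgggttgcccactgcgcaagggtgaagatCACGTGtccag
The word, which reads the same on both strands and whose matches here do not overlap, occurred 4 times. Of 32851 RefSeq windows of the same length, 6.02% held it at least once and 7 windows, Cdk4 included, held it 4 or more times. Myc RNA had log2 signals of 11.91, 11.81 and 11.67 on the wild-type arrays and of 11.81, 12.19 and 11.73 on the T173I arrays. Its difference was 0.11 (95% interval -0.22 to 0.45), within the spread of the arrays. A match is a description of the letters, not evidence of binding in these cells. Of the 10 genes, 7 had a RefSeq promoter window, and Ccnd1, Ccnd2 and Cdkn1c are named without one.

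**Figure D2:**
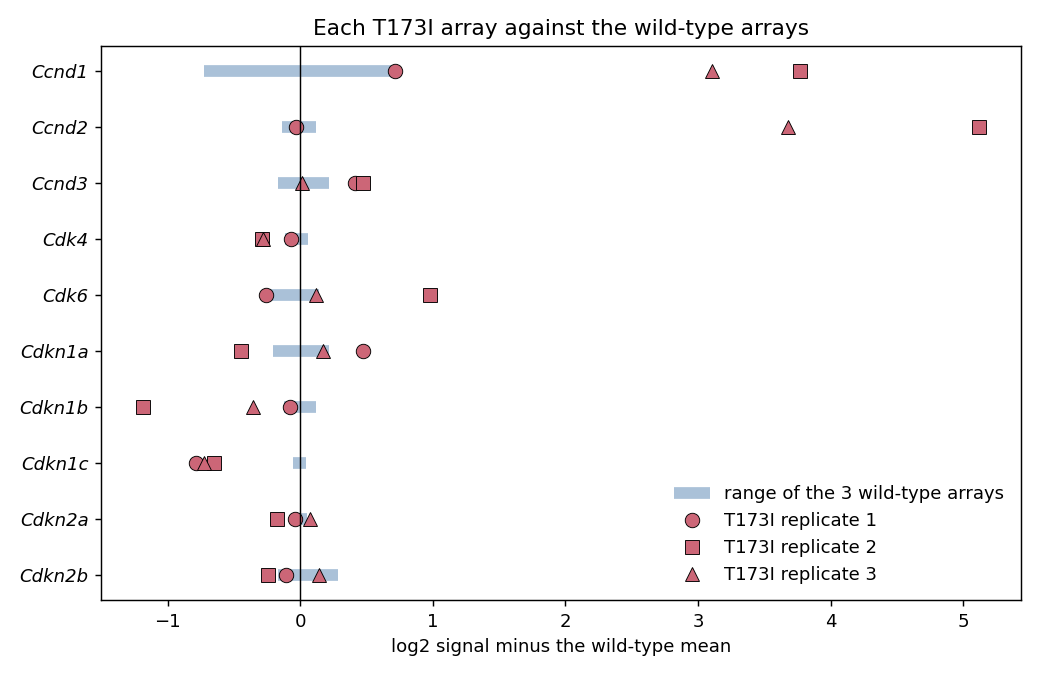
Log2 signal of each T173I array minus the wild-type mean (horizontal axis) for the 10 genes, with the range of the 3 wild-type arrays as a bar. T173I replicate 2 (squares) lies outside the bar for all 10 genes, and the 3 T173I arrays sit together and away from the bar only for Cdkn1c.

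The Cip/Kip inhibitors went 3 ways. Cdkn1c, for p57, an imprinted gene that holds back proliferation in developing tissues, had log2 signals of 6.53, 6.43 and 6.49 on the wild-type arrays and of 5.70, 5.84 and 5.76 on the T173I arrays. All 3 T173I arrays were low, replicate 1 the lowest, and the groups did not overlap. Means were 6.49 ± 0.049 (SD, n = 3) and 5.77 ± 0.070 (SD, n = 3), a difference of -0.72 (95% interval -0.91 to -0.53), or 1.65-fold lower. Its T173I signals lay close to the signal limit of 5.37, where array values compress differences.

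Cdkn1b, for p27, which accumulates in resting cells and falls when they are stimulated to divide, had log2 signals of 9.86, 9.61 and 9.74 on the wild-type arrays and of 9.66, 8.55 and 9.38 on the T173I arrays. T173I replicate 2 was the lowest by far, replicate 3 was also below the wild-type range and replicate 1 was inside it, so the groups overlapped. The difference was -0.54 (95% interval -1.19 to 0.12), and it was -0.22 without T173I replicate 2. Cdkn1a, for p21, a target of p53 that growth factors also induce, had 11.68, 11.88 and 12.10 on the wild-type arrays and 12.36, 11.44 and 12.05 on the T173I arrays. T173I replicate 1 was the highest and replicate 2 the lowest of all 6, and the difference of means was 0.065 (95% interval -0.51 to 0.64). On T173I replicate 2, then, Ccnd1, Ccnd2, Ccnd3 and Cdk6 were at their highest of the 6 arrays. Cdkn1a, Cdkn1b, Cdkn2a and Cdkn2b were at their lowest there, and so was the kinase gene Cdk4. The same array was at an extreme for 53.6% of all genes tested.

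The INK4 inhibitor genes were well above the signal limit and nearly level. Cdkn2a had log2 signals of 11.59, 11.53 and 11.51 on the wild-type arrays and of 11.50, 11.37 and 11.62 on the T173I arrays. Its difference was -0.047 (95% interval -0.26 to 0.17), among the smallest of the 10. Cdkn2b, for p15, which TGF-beta is known to induce, had 9.59, 9.13 and 9.18 on the wild-type arrays and 9.19, 9.06 and 9.44 on the T173I arrays. The groups overlapped, and the difference was -0.070 (95% interval -0.45 to 0.31). Cdkn2a makes 2 unrelated proteins, the INK4 protein p16 and the p53 regulator ARF, from separate first exons, and its 1 probe set value does not tell them apart.

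The 2 RefSeq starts of Cdkn2a, 12.4 kb apart on the - strand of chromosome 4, are shown to make this concrete, as the 250 bases before each (GRCm38.p6, chr4:89294620-89294869 for the start farther upstream, where ARF begins, and chr4:89282193-89282442 for the other one). Capitals mark the GC box GGGCGG, searched on both strands, which 32.7% of all RefSeq windows of this length held:
Cdkn2a, upstream start: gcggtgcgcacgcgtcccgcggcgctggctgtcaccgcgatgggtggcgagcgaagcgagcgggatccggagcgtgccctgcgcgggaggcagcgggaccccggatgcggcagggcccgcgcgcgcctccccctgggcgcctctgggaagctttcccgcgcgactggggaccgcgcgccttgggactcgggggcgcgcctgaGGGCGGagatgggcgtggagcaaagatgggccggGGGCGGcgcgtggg
Cdkn2a, downstream start: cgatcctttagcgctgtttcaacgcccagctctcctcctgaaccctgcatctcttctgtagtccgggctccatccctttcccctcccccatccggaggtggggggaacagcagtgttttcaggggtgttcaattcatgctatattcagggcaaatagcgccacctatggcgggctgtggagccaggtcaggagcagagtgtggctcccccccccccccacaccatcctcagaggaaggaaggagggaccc
The upstream window held 2 GC boxes and the downstream window 0. These windows differ in their letters, and the array gave 1 value for transcripts from both.

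Across the 10 genes, T173I replicate 2 was at an extreme more often than any other array. It was the highest or the lowest of the 6 arrays for 9 of 10 genes, all but Cdkn1c, where 53.6% of all genes tested had it at an extreme. Wild-type replicate 1 was at an extreme for 6 of 10 (33.2% of all genes), T173I replicate 1 for 3 (31.8%), T173I replicate 3 for 1 (31.9%), wild-type replicate 3 for 1 (24.8%) and wild-type replicate 2 for 0 (22.8%). Outside the wild-type range lay 10 of 10 genes on T173I replicate 2 (71.0% of all genes tested), 6 on replicate 3 (63.4%) and 6 on replicate 1 (53.9%). T173I replicate 2 had a median absolute distance of 0.56 from the wild-type mean over the 10 genes, replicate 3 one of 0.23 and replicate 1 one of 0.18, each above the value over all genes on the same array. The SD was larger in T173I than in wild type for 9 of 10 genes, as for 70.6% of all genes tested. These counts include Ccnd2, which was tested only through T173I replicates 2 and 3. Its extreme on replicate 2 and its large T173I SD are therefore tied to its inclusion. The 10 genes were also listed with these differences in view, so the comparison with all genes is a description.

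**Figure D3:**
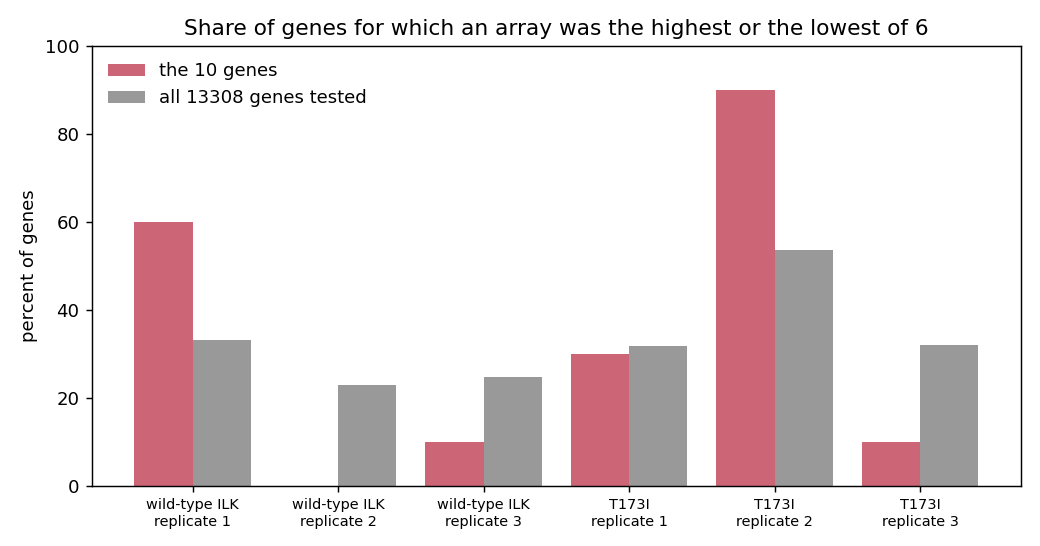
Percent of genes (vertical axis) for which each array was the highest or the lowest of the 6, for the 10 genes (red) and for all genes tested (grey). T173I replicate 2 is at an extreme for 9 of the 10 genes against 53.6% of all genes, and wild-type replicate 2 for 0 against 22.8%. The 10 genes include Ccnd2, which was tested only through T173I replicates 2 and 3.

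The differences between the groups are a description, since the genes were proposed with this contrast in view. In limma's test with Benjamini-Hochberg adjustment over 13308 genes, 0 of the 10 genes had an adjusted p under 0.05, beside 0.00% of all genes. Ccnd2 entered the test only through the arrays where it was high, and counts of unadjusted calls leave it out. Of the other 9 genes, 2 had an unadjusted limma p under 0.05, beside 10.2% of all genes: Ccnd1 higher, beside 4.88%, and Cdkn1c lower, beside 5.31%. That count was 1 without wild-type replicate 1 (Cdkn1c), 4 without T173I replicate 1 (Cdk4 and Cdkn1b added) and 2 without each of the other arrays, where leaving out T173I replicate 3 put Ccnd3 in the place of Ccnd1. Over all 13308 genes the unadjusted count was 1357 on all arrays, 2946 without T173I replicate 1 and 670 to 1075 without any other array. The groups did not overlap for 2 of 10, Ccnd1 and Cdkn1c, beside 15.2% of all genes tested. Signs were balanced, with 5 positive and 5 negative differences and a median of 0.0088, against -0.011 over all genes. Without T173I replicate 1, 2 of these 9 passed limma's adjusted threshold, beside 1.17% of all genes: Ccnd1 with a difference of 3.43 and Cdkn1c with -0.69. The array left out was the T173I array nearest to wild type, and the count over all genes rose from 0 to 156. These passes are therefore no separate support. The difference of Ccnd2 was then 4.40, between the arrays that carried it past the filter and the others. Leaving out any other array gave 0 of 10.

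The core partners of the G1 to S step showed no change that passed the test. Of 23 listed genes 22 were measured (all but Ccne2), and 0 rose and 0 fell at an adjusted limma p under 0.05 (lowest adjusted p = 0.45). Without adjustment 2 were higher, beside 4.88% of all genes, and 0 lower, beside 5.31%, at a limma p under 0.05; this count of 2 was 0 without wild-type replicate 1 or 3, 1 without T173I replicate 2 or 3 and 5 without T173I replicate 1. The median difference was -0.024, against -0.011 over all genes, with 10 positive. E2f4, an E2F factor that mostly represses in resting cells, had a difference of 0.39 (95% interval 0.081 to 0.70), and E2f8, an atypical E2F that represses cell cycle genes in S phase, one of 0.35 (0.034 to 0.67). E2f3, an activating E2F, had 8.27, 8.41 and 8.32 on the wild-type arrays and 8.29, 8.92 and 8.97 on the T173I arrays. Cdkn2c, for the INK4 protein p18, had 9.29, 9.32 and 9.41 on the wild-type arrays and 9.35, 8.52 and 8.71 on the T173I arrays. Like Ccnd2, these 2 genes had T173I replicate 1 at the wild-type level and replicates 2 and 3 apart from it, upwards for E2f3 and downwards for Cdkn2c. Unlike in Ccnd1 and Ccnd2, replicate 3 rather than 2 was the highest for E2f3.

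Without T173I replicate 1, E2f3 (difference 0.62) and Cdkn2c (-0.73) were the 2 of 22 core partners past limma's adjusted threshold, again beside 1.17% of all genes. Both had just been described by this array lying at the wild-type level, so their passing without it is no separate support. Ccna2, for cyclin A2, which acts in S phase, was nearly level, with log2 signals of 12.40 to 12.49 in wild type and 12.43 to 12.44 in T173I. Ccne1, for cyclin E1, had a difference of 0.25 (95% interval -0.13 to 0.63), Cdk2 one of -0.034 (-0.34 to 0.27) and Rb1, the retinoblastoma gene, one of 0.0071 (-0.44 to 0.46). Ccna2, Ccne1, Cdk2 and Rb1, like Myc above, were picked for their roles after the values were seen.

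Genes that degrade or assemble these proteins were also without a call. Of 21 listed genes 20 were measured (all but Hsp90ab1), 0 rose and 0 fell at an adjusted limma p under 0.05 (lowest adjusted p = 0.46). Without adjustment 1 was higher, beside 4.88% of all genes, and 2 were lower, beside 5.31%, at a limma p under 0.05; this count of 3 was 0 without wild-type replicate 2 or T173I replicate 3, 2 without T173I replicate 2 and 1 if wild-type replicate 1 was left out. Differences were split 10 to 10, with a median of -0.0027. Fbxw7, a ubiquitin ligase subunit for cyclin E, had a difference of 0.25 (95% interval 0.047 to 0.46). Fbxw8, reported as a ligase subunit for cyclin D1, had -0.33 (-0.62 to -0.045), and Skp1, the adaptor shared by such ligases, -0.35 (-0.67 to -0.040). Ambra1, the ligase adaptor for all 3 D-type cyclins, had 0.17 (-0.024 to 0.37).

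Transcription factors known to act on the 10 genes gave a similar picture. Of 26 listed genes 24 were measured (all but Fosl1 and Trp53), and 0 rose and 0 fell at an adjusted limma p under 0.05 (lowest adjusted p = 0.45). Without adjustment 0 were higher, beside 4.88% of all genes, and 2 lower, beside 5.31%, at a limma p under 0.05. This count of 2 was 8 without T173I replicate 1, where the count over all 13308 genes rose from 1357 to 2946. The median difference was -0.076, against -0.011 over all genes, with 17 of 24 negative, against 7005 of 13308. Jun, an AP-1 subunit that activates Ccnd1, had log2 signals of 9.82, 9.52 and 9.64 on the wild-type arrays and of 9.00, 8.98 and 9.28 on the T173I arrays, a difference of -0.57 (95% interval -0.87 to -0.28). Egr1, an immediate early zinc finger factor, had 10.82, 10.85 and 10.74 on the wild-type arrays and 10.47, 10.08 and 10.21 on the T173I arrays, a difference of -0.55 (-0.82 to -0.27). In both, all T173I arrays lay below all wild-type arrays. The groups did not overlap for 4 of the 24 genes (Jun, Egr1, Foxo4 and Smad4), beside 15.2% of all genes tested. Foxo4, a FOXO factor, had a difference of -0.19 (-0.41 to 0.034) and Stat3 one of -0.33 (-0.72 to 0.066). Without T173I replicate 1, Egr1 alone of this list passed limma's adjusted threshold, with a difference of -0.65, beside 1.17% of all genes.

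**Figure D4:**
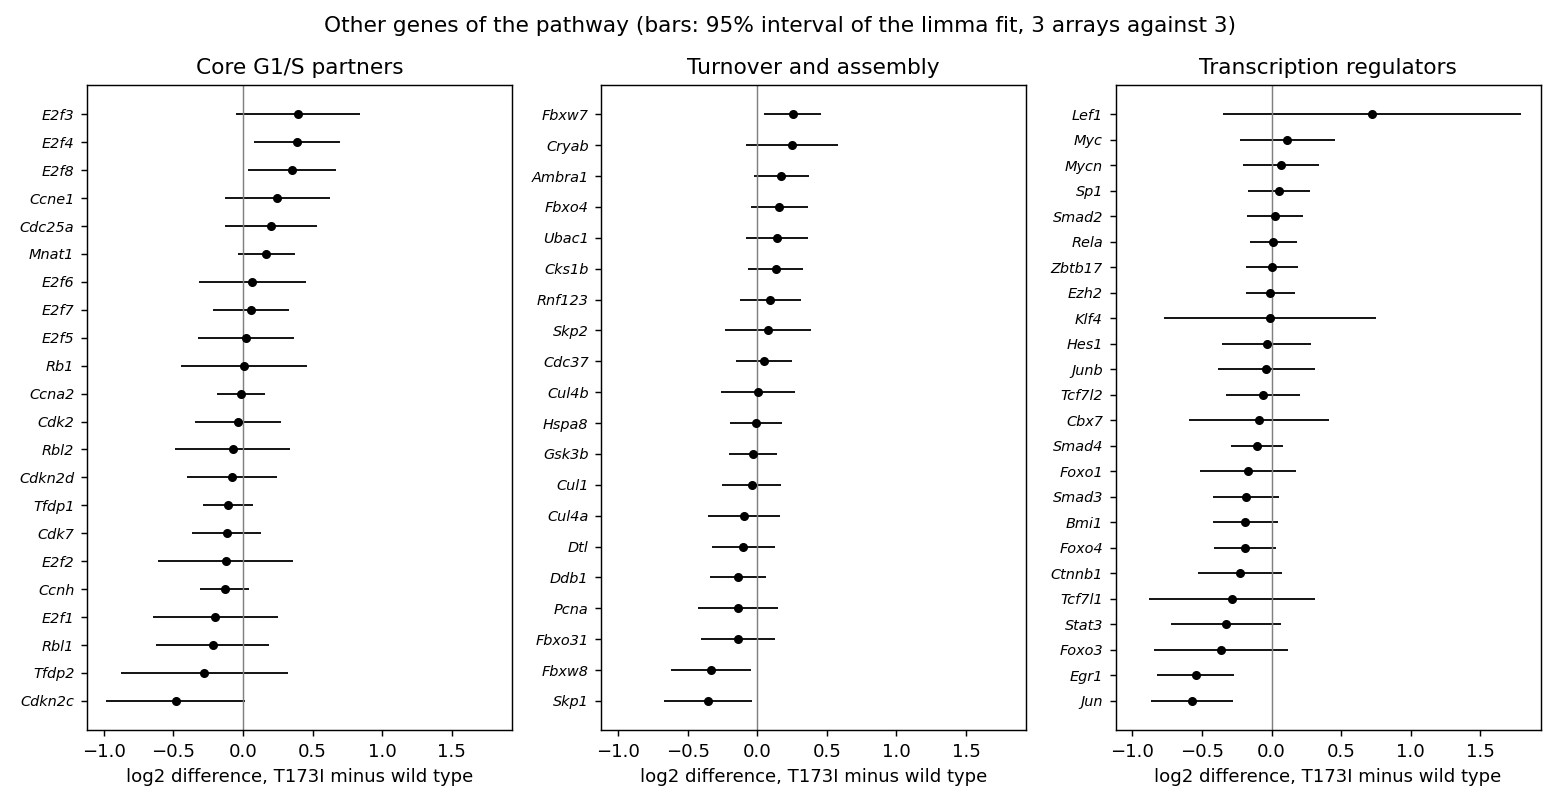
Log2 difference, T173I minus wild type, with its 95% interval from the limma fit (horizontal axis) for the measured genes of 3 lists. Most intervals include 0, and those of E2f4, E2f8, Fbxw7, Fbxw8, Skp1, Egr1 and Jun do not; none of these genes passed after adjustment.

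The genes most like the 3 members with the largest differences were found by Pearson's r over the 6 arrays, a description in which the same arrays give every pattern. For Ccnd1 these were Cd109, a membrane-anchored TGF-beta co-receptor, Tob1, an antiproliferative protein, Parpbp, Ncs1 and Cacna1g, with r of 0.989 to 0.996. Cd109 had log2 signals of 5.27, 6.11 and 5.57 on the wild-type arrays and of 6.32, 8.07 and 7.64 on the T173I arrays, the same order as Ccnd1 on all 6. For Ccnd2 they were Dnah9, Lemd1, Tnfrsf10b, a death receptor, Rnf20, a ubiquitin ligase for histone H2B, and Map3k20, with r of 0.994 to 0.999. Their differences were small, from 0.034 for Dnah9 to 0.49 for Tnfrsf10b, far below that of Ccnd2. Dnah9 had 1 and the same value, 5.36, on the 4 arrays other than T173I replicates 2 and 3 and spanned 0.058 log2 units near the signal limit, so its r rests on 2 arrays at a dim level. Every r with Ccnd2 rests on the same 2 arrays, since Ccnd2 was below the signal limit on the other 4. On those 4 arrays Lemd1 was near the limit too (5.40 to 5.44). For Cdkn1c they were Rbak, a zinc finger protein that binds the retinoblastoma protein, Shroom3, an actin regulator of epithelial cells, Arhgef10l, Smad1, a transducer of BMP signals, and Ociad1, with r of 0.961 to 0.995. Arhgef10l had the largest difference of these 5, at -0.65.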

How the data were processed

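RNA of 6 samples was hybridised to 1 Affymetrix array each, per the labels' protocols after Qiagen purification and WT PLUS labelling. The deposited values are on the log2 scale and come from RMA, per the submitters' processing notes, with no version given in the sources used here. RMA makes the distributions of the arrays alike and hides a shift shared by most transcripts. The precision is limited by the number of arrays.

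Of 41345 probe sets, 23521 had exactly 1 symbol in the platform annotation; the brightest mean stood for a gene. The 40% of genes with the lowest mean over all arrays were left out, and 13308 were tested with limma 3.58.1 (R 4.3.3; lmFit, eBayes, no covariate, two-sided, Benjamini-Hochberg, threshold 0.05). Groups came from the sample titles. The labels call replicates biological but name no separate cultures, so p-values measure the spread between these arrays. Over all genes tested, same-numbered arrays hardly deviated together (correlations 0.048 to 0.067), and the main fit did not pair them. Single genes can differ from this. Members, lists and alternatives were chosen with earlier results of these data known. Named were all members, the 4 genes with the smallest unadjusted p of each other list, and the 5 genes most correlated with each of 3 members, without predicted or RNA genes. The fit was tested on simulated data of this comparison (13308 genes, 3 arrays against 3): of 100 genes changed 2-fold 77% were called, of 100 changed 4-fold 95%, with 12 false calls. The simulation used independent noise with 1 SD per gene, pooled over the groups. The real T173I arrays varied more than the wild-type arrays (median SD 0.16 against 0.098), so the shares called may be too high for these data. Alternatives changed the filter, the prior, the normalization, the probe set rule, array weights and the block, and left out each array.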

Additional observations from a re-analysis of the deposited data

How the results depend on the processing

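The count of genes past the adjusted limma threshold was 0 in all alternatives but 1. Leaving out each array in turn gave 0 to 156 genes, 0 to 3 of the 10 members (Ccnd2 included), 0 to 2 core partners, 0 to 1 of the transcription regulators and 0 turnover and assembly genes, the higher counts all without T173I replicate 1. With the replicate number as a block 0 genes passed, as in the fit without it, with 1508 genes at an unadjusted p under 0.05 against 1357. Of the 9 members without Ccnd2, 2 had an unadjusted limma p under 0.05 in the main fit. That count was 3 with the block (Cdkn1b added) and 3 with array weights or with the altered prior (Cdk4 added). Over all genes the count was 2856 with array weights and 1373 with the altered prior. Under the filter that left out the lowest 60% it was 1 of 8 members (Ccnd1). In 148 recomputed values, no difference of a member moved by more than the pooled SD of the groups. That shows no stability, since leaving out 1 of 3 arrays cannot move a group mean that far. The filter, the prior, the block and the probe set rule leave these differences unchanged by design. The filter that left out the lowest 60% removed Ccnd2 and Cdkn1c, which then gave no value. Leaving out 1 array, the difference was 1.91 to 3.43 for Ccnd1 (its interval included 0 without wild-type replicate 1, -0.12 to 4.45, or T173I replicate 3, -0.20 to 4.68), 0.21 to 0.45 for Ccnd3, 1.82 to 4.40 for Ccnd2, -0.77 to -0.22 for Cdkn1b and -0.76 to -0.69 for Cdkn1c. The sign turned for Cdk6 without T173I replicate 2 (-0.069), and for 3 inhibitors with small differences: leaving out 1 array gave -0.14 to 0.32 for Cdkn1a, -0.11 to 0.017 for Cdkn2a and -0.17 to 0.074 for Cdkn2b, and array weights gave 0.027 for Cdkn2a and 0.093 for Cdkn2b. The median difference of all genes was -0.011 as deposited, 0.00081 after repeated quantile normalization and 0.0020 with cyclic loess.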
